A study of Mus musculus with 16 samples.

Results

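The response to stimulation was examined in blood neutrophils that lack the lymphotoxin β receptor (LTβR, gene Ltbr), by setting the 5 libraries labelled stimulated against the 4 labelled unstimulated, 9 of the 16 libraries of the series. The libraries were chosen by the names of their columns in the count table, which carry the treatment and the Cre transgene. Both groups came from 8 week old C57/Bl6 mice of the genotype Ltbrfl/fl x Mrp8-Cre, called LTβRΔN, in which Cre is driven by the promoter of Mrp8 (S100a8) and deletes the floxed gene in neutrophils. The other 7 libraries came from Ltbrfl/fl littermates without Cre, 3 unstimulated and 4 stimulated. Neutrophils were purified from blood by negative selection with magnetic beads and cultured for 2 h. According to the treatment protocol the cultures received a mixture of TNF (100 ng/ml), IL-6 (50 ng/ml) and GM-CSF (100 ng/ml), and LIGHT, a ligand of LTβR, was added to some of them (500 ng/ml). In the design text it is the inflammatory cytokines that separated the arms. No label gives the additions for a single library, so the groups are called stimulated and unstimulated, and which additions set them apart was not resolved here. Nor do the labels say whether libraries came from separate animals, so p-values measure only the spread between these libraries, which may be technical.

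Neutrophils carry receptors for TNF, IL-6 and GM-CSF and for microbial products. TNF and LTβR both signal to NF-κB, whose dimers are held in the cytoplasm by IκB proteins until IκB kinase marks these for destruction. Among the genes that NF-κB switches on are those of its own inhibitors, which makes the response self-limiting, and those of chemokines and cytokines that draw further leukocytes to a site. IL-6 and GM-CSF act through JAK kinases and STAT factors, which induce the SOCS family inhibitors and PIM kinases. GM-CSF also prolongs the life of neutrophils, in which the BCL2 relative A1 is one of the survival proteins.

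Totals lay between 1094335 and 11424825 counts in unstimulated and between 1506153 and 8575222 in stimulated LTβRΔN libraries, and did not differ beyond their spread (p = 0.381 by a two-sided exact permutation test, which can go no lower than 0.0159). Values below are in CPM, which are counts scaled to the library's total after TMM normalisation, and in lists they stand in the order of libraries 67, 68, 69 and 70 (unstimulated) and 75, 76, 77, 78 and 79 (stimulated). Ltbr had 10.05, 8.80, 3.62 and 10.4 CPM without and 18.1, 3.71, 0.704, 10.3 and 10.5 CPM with stimulation in LTβRΔN neutrophils, where the groups overlapped. It had 101, 93.5 and 154 CPM in unstimulated and 96.96, 105, 84.6 and 148 CPM in stimulated control libraries, all above every LTβRΔN library. Of 8 neutrophil markers, 7 were in the table and all 7 were tested, none with an adjusted p under 0.05 and none at 0. Their summed level spanned 44400 to 74900 CPM without and 46200 to 72100 CPM with stimulation. B cell and NK cell markers summed to at most 1.60 CPM in any of the 9 libraries, those of basophils and mast cells to 0, and those of T cells and platelets to at most 16.4 CPM. Monocyte and macrophage markers summed to between 417 and 655 CPM, and the 3 of them that were tested did not pass. Erythroid markers summed to between 12 and 66.6 CPM, eosinophil markers to at most 11 CPM and those of immature neutrophils to between 40 and 205 CPM, with Elane, Mpo and Ctsg at 0. Library titles end in an index, S520 in all 4 unstimulated and S521 in all 5 stimulated LTβRΔN libraries, so within these 9 the index and the treatment cannot be told apart. Fits below with the index as a covariate take its effect from the unstimulated controls alone, libraries 71 and 72 (S520) against 73 (S521). A call lost or a direction turned in such a fit may reflect the index or only a less exact estimate, which cannot be told apart.

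Of 9213 genes tested with edgeR's quasi-likelihood test, 344 (3.73%) differed at a Benjamini-Hochberg adjusted p under 0.05, 275 higher (2.98%) and 69 lower (0.749%) in stimulated LTβRΔN neutrophils. Higher genes moved further than lower ones. The median fold was 2.43 among the higher genes, of which 180 (1.95% of those tested) rose at least 2-fold, 76 at least 4-fold and 37 at least 16-fold. Lower genes fell by a median of 1.80-fold, 29 of them (0.315% of those tested) at least 2-fold and 7 at least 4-fold. Every stimulated library lay above every unstimulated one for 262 of the 275 higher genes, and below for 64 of the 69 lower genes. Over all genes tested such a gap above occurred for 4.61% and one below for 2.67%. The split depended on the scaling, since CPM are relative to the total. With library totals in place of TMM factors the split was 216 up and 293 down, while the median over every gene went from -0.028 to -0.21 on the log2 scale. In bulk RNA, fewer cells expressing a gene and less RNA per cell cannot be told apart.

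**Figure D1:**
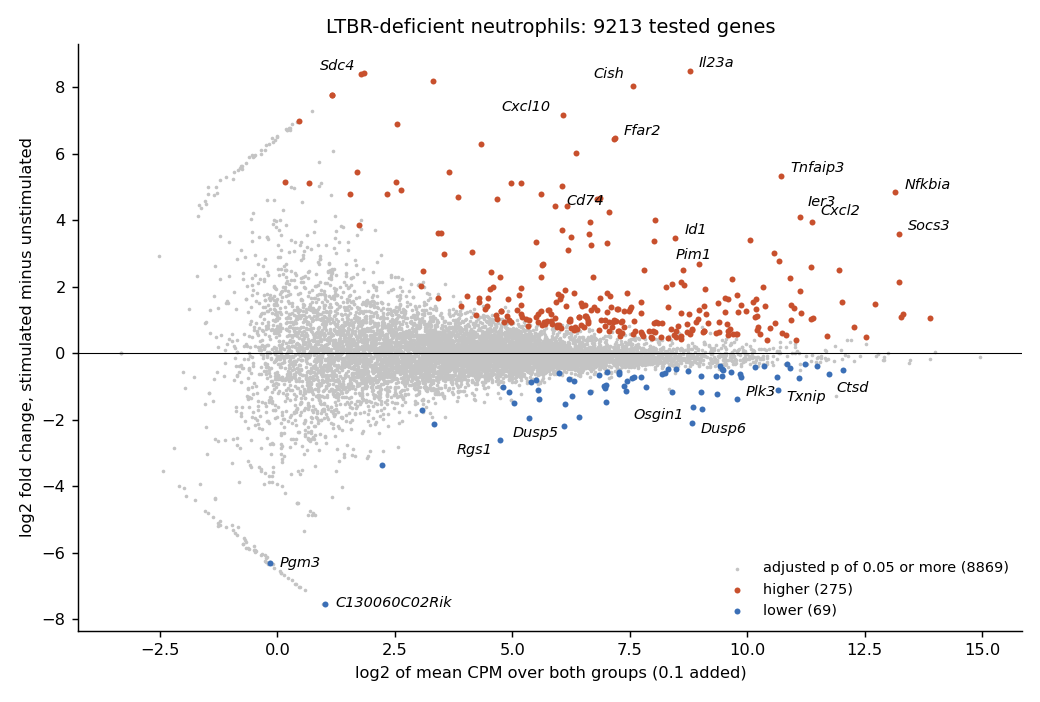
Each point is 1 of 9213 tested genes, with the log2 of its mean CPM over both groups (0.1 added) on the x axis and its log2 fold change between stimulated and unstimulated LTβRΔN neutrophils on the y axis. The 275 higher genes (red) reach up to 8.50 for Il23a, while the 69 lower genes (blue) lie between 0 and -2.60 apart from C130060C02Rik, Pgm3 and Slc16a14.

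The higher genes took up a large part of the RNA. They held between 8.79% and 12% of the counts of an unstimulated library (median 11.1%) and between 24.7% and 28.2% of a stimulated one (median 26.4%). The share held by the lower genes went from between 5.07% and 5.60% to between 2.76% and 3.10%. Since these genes were picked by this contrast, the shares describe its size and test nothing. Before stimulation the lower genes had a median of 238 CPM and the higher genes of 74.9 CPM, against 15.2 CPM over all tested genes.

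**Figure D2:**
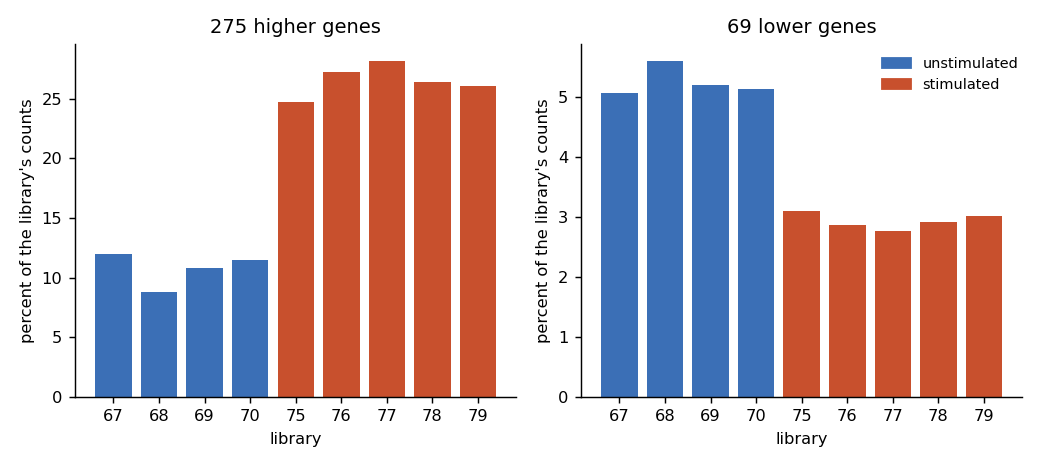
Bars give the percent of each LTβRΔN library's counts that fell on the 275 higher genes (left) and the 69 lower genes (right), with libraries on the x axis, unstimulated in blue and stimulated in red. The left bars rise from at most 12% to at least 24.7% and the right ones drop from at least 5.07% to at most 3.10%.

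The genes were grouped by 34 lists, which were written with results of these data known. Of the called genes 100 that rose and 13 that fell stood in a list. Counts per list are to be read against 2.98% higher and 0.749% lower over all tested genes. In a short list 0 or 1 calls thus say little about its members. Lists of NF-κB inhibitors, chemokines and cytokines had the largest shares of higher members, and RGS and MAP kinase feedback genes the largest shares of lower ones.

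**Figure D3:**
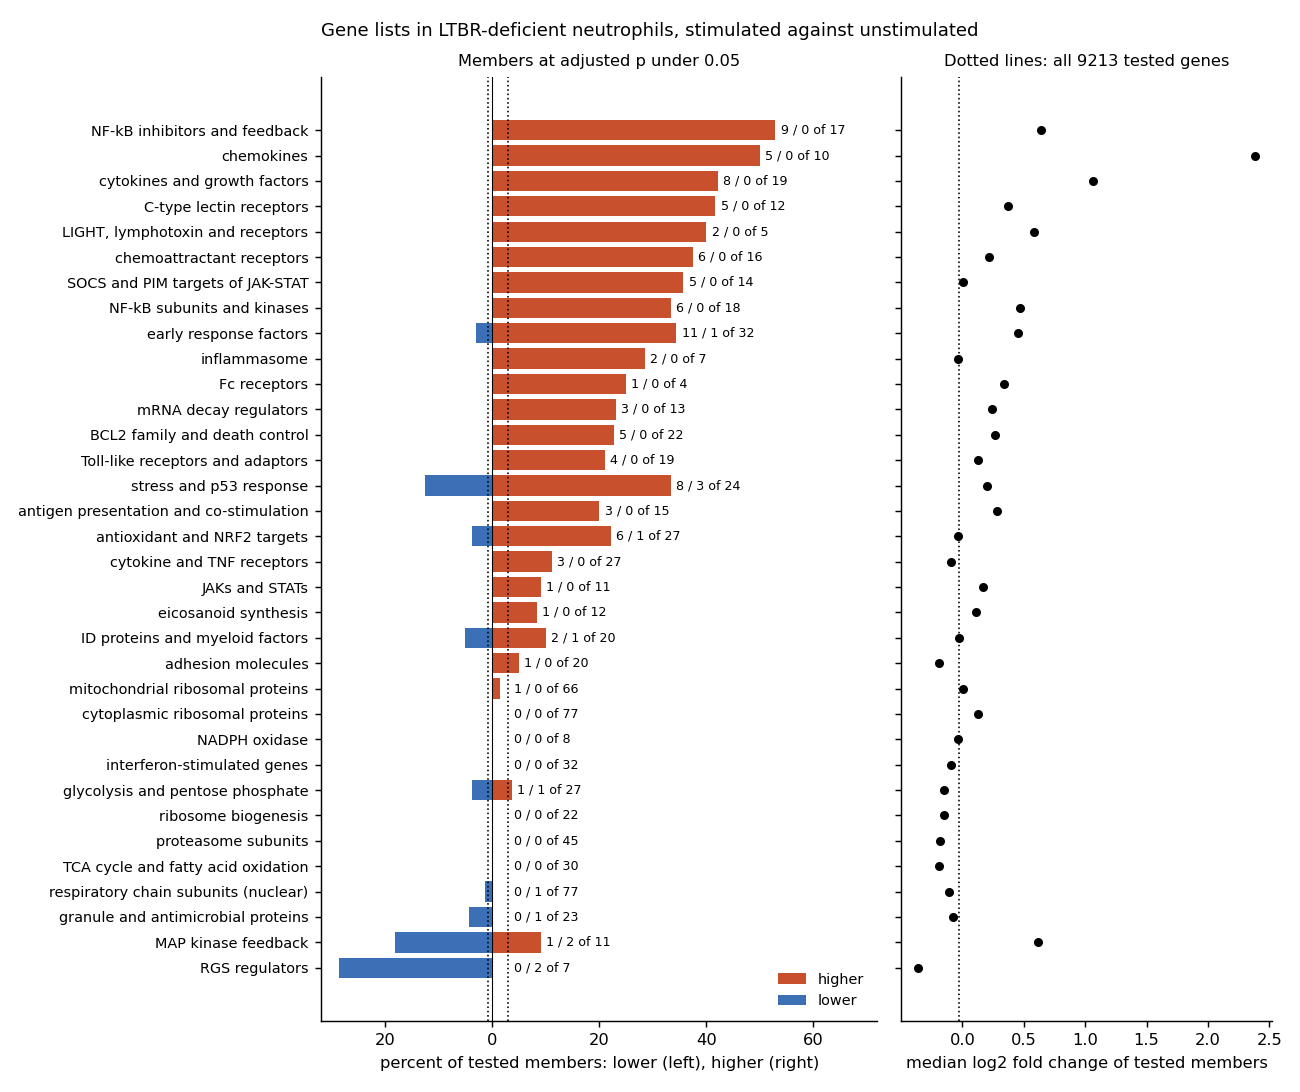
For each of 34 gene lists, the left panel shows the percent of tested members higher (red, to the right) and lower (blue, to the left) in stimulated LTβRΔN neutrophils, with the numbers beside the bar as higher / lower of tested, and the right panel shows the median log2 fold change of the tested members. Dotted lines mark 2.98% higher, 0.749% lower and a median of -0.028 over all tested genes, and the list of NF-κB inhibitors lies furthest right with 9 of 17 members higher.

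The list of NF-κB inhibitors had the largest share of higher members. Of 17 tested members of this list 9 were higher and 0 lower, with a median log2 fold change of 0.64 over the 17. Tnfaip3, whose product A20 edits ubiquitin chains and restrains NF-κB signalling, had 80.5, 74.4, 79.2 and 88.1 CPM without and 2915, 3400.3, 3662, 3225 and 3273 CPM with stimulation. The groups were far apart and each was tight, giving a log2 fold change of 5.35 (SE 0.17, adjusted p = 6.05e-16), the smallest p of all genes. Nfkbia, which encodes IκBα, had 720.6, 563, 509 and 652 CPM in unstimulated and 15744, 18336, 18616, 18123 and 17252 CPM in stimulated libraries, a log2 fold change of 4.85 (SE 0.18, adjusted p = 4.31e-15). The genes of 3 further IκB proteins rose less. Nfkbie (IκBε) rose by 3.10 on the log2 scale, Nfkbiz (the nuclear IκBζ) by 2.24 and Nfkbib (IκBβ) by 1.45, with every stimulated library above every unstimulated one for each. N4bp1, another restrainer of NF-κB, rose by 1.33. Among the subunits and kinases of the pathway 6 of 18 were higher and 0 lower (median 0.47). Rel (c-Rel) went from between 33.2 and 38.4 to between 104 and 162 CPM, and Nfkb2, the precursor of p52, from between 39.4 and 57.2 to between 90.3 and 192 CPM. Map3k8, a kinase that links NF-κB1 to ERK, rose by 1.82 on the log2 scale and Traf6, an adaptor of Toll-like and IL-1 receptors, by 1.45. With the library index in the model, log2 fold changes in parentheses, Nfkbib (1.17), Map3k8 (1.28) and Traf6 (2.38) did not pass (edgeR adjusted p from 0.158 to 0.625).

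Promoters of 8 raised genes described here are shown because each holds a match to the κB motif close to its start. They were picked for that match, so they do not show how common it is among raised genes. The sequences are from RefSeq on GRCm38.p6 (the submitters' notes give mm10 for the reads), each the 160 bases directly before the start of the gene, 5′ to 3′ on the strand of the gene, with κB matches in capitals on either strand. In Irf1 the capitals also mark the motif TTCNNNGAA, the general form of a STAT site.
Tnfaip3 (chr10:19015411-19015570, minus strand): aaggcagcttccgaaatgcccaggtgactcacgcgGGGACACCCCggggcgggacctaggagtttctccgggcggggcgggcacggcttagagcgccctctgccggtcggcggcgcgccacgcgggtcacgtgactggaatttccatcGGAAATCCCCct
Nfkbia (chr12:55492648-55492807, minus strand): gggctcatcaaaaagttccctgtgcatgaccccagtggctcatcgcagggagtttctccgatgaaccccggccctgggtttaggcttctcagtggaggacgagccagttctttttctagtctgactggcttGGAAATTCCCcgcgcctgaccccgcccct
Cxcl1 (chr5:90891085-90891244, plus strand): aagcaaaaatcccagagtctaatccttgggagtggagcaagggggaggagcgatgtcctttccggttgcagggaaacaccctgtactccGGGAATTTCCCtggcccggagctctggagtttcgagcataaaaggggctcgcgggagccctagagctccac
Cxcl2 (chr5:90903739-90903898, plus strand): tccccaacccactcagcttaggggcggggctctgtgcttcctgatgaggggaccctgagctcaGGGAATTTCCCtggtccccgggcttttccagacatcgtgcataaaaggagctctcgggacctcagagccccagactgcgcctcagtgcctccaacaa
Cxcl3 (chr5:90785941-90786100, plus strand): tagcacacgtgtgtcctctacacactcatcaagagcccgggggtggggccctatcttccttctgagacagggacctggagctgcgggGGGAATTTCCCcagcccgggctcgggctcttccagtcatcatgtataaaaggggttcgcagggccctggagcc
Cxcl10 (chr5:92348890-92349049, minus strand): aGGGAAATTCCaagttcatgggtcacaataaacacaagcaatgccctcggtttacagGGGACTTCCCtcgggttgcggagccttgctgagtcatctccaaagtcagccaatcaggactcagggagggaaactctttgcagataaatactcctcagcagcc
Sod2 (chr17:13007679-13007838, plus strand): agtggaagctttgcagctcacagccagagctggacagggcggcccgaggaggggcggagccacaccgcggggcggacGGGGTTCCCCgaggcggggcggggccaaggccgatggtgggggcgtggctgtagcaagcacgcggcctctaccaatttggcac
Irf1 (chr11:53769854-53770013, plus strand): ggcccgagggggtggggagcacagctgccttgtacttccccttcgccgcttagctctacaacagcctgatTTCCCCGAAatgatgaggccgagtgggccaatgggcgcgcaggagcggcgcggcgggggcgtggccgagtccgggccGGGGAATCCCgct

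In Tnfaip3 the matches begin 125 and 12 bases before the start, and in Nfkbia 29 bases before it. Cxcl1, Cxcl2 and Cxcl3 share the same 11 bases, GGGAATTTCCC, in which 2 matches overlap, at 71, 97 and 73 bases before their starts. Windows of 250 bases before to 50 bases after a start were found by symbol for 225 of the 275 higher, 53 of the 69 lower and 7427 of the 9213 tested genes. A κB match on either strand lay in the windows of 29 of the 225 higher genes (12.9%), of 15 of 65 genes that rose at least 4-fold (23.1%) and of 0 of the 53 lower genes, against 6.10% of tested genes and 4.51% of all 32851 windows. TTCNNNGAA, which reads the same on both strands, lay in 30 (13.3%), 12 (18.5%) and 3 (5.66%) of these, against 8.36% of tested genes and 8.30% of all windows. With a κB match in 6.10% of tested genes, few would be found among 53 genes in any case, so 0 of the 53 lower genes says little. The counts are of letters in a window and show no binding. They could not take in sites further away.

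A few feedback genes of JAK and STAT signalling rose, by large steps for Cish, Socs3 and Pim1 and smaller ones for Socs1 and Ptpn1. Of 14 tested SOCS, PIM and phosphatase genes, with Bcl6 among them, 5 were higher and 0 lower. The median over the 14 was 0.0072. Cish, a STAT5 target whose product dampens cytokine receptors, had 0.773, 5.60, 2.94 and 0.425 CPM without and 239.7, 475, 470.3, 433 and 273 CPM with stimulation, a log2 fold change of 8.05 (SE 0.46, adjusted p = 1.36e-11). Socs3, the inhibitor of IL-6 receptor signalling, was already at 2162, 871, 1161 and 1715 CPM in unstimulated libraries and reached 17669, 17185, 17274, 18487 and 18726 CPM. Its unstimulated libraries spread over more than 2-fold and its stimulated ones hardly at all, with a log2 fold change of 3.59 (SE 0.24, adjusted p = 1.72e-10). Pim1, a survival kinase, had 126, 128, 111 and 114 CPM and then 673, 772, 648, 661 and 624 CPM, a log2 fold change of 2.50 (adjusted p = 3.69e-12). Socs1 rose by 1.68 and Ptpn1, a phosphatase of JAK2, by 0.62 on the log2 scale. Of 11 JAK and STAT genes only Jak2 passed in this fit. It went from between 29.5 and 32.8 to between 64.7 and 125 CPM (1.55 on the log2 scale, adjusted p = 2.22e-05). Of 27 tested cytokine and TNF receptors 3 were higher and 0 lower (median -0.090), among them Il10ra, the ligand-binding chain of the IL-10 receptor (from between 141 and 173 to between 525 and 830.5 CPM, log2 fold change 2.06), and Il2rg, the common γ chain (1.63). Il6ra was tested, but Il6st, the other chain of the IL-6 receptor, did not pass the filter on low counts. Under the index covariate, Socs1 (1.09), Ptpn1 (0.61), Jak2 (1.28) and Il2rg (2.02) did not pass (edgeR adjusted p from 0.306 to 1).

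Secreted factors formed the next group, with 8 of 19 tested cytokine and growth factor genes higher and 0 lower (median 1.07). Il23a, the p19 subunit of IL-23, had 2.94, 5.60, 4.07 and 0.596 CPM without and 540.3, 1258, 1024, 919.6 and 632 CPM with stimulation. All stimulated libraries stood far above the highest unstimulated one, and the log2 fold change was 8.50 (SE 0.46, adjusted p = 4.95e-12). Il12b, which encodes the partner chain of IL-23, did not pass the filter on low counts, nor did Il6 and Il10. Il1a had 1.55, 4.80, 0.226 and 5.87 CPM and then 201, 343, 366, 255 and 267 CPM, a log2 fold change of 6.47 (SE 0.48). Both Il1b and the gene of the natural antagonist Il1rn rose as well, from between 5673 and 11994 to between 17808 and 23413 CPM (1.07 on the log2 scale) and from between 421 and 559.05 to between 1059 and 1802 CPM (1.44). Tnf went from 10.4, 7.998, 19.7 and 10.3 CPM to 109, 161, 137, 131 and 159 CPM, a log2 fold change of 3.50 (SE 0.39). The groups of these IL-1 and TNF genes did not overlap. Inhba, a subunit of activin, rose by 5.12 on the log2 scale and Hbegf, a ligand of the EGF receptor, by 6.04. Osm (oncostatin M) rose by 1.56, but its direction turned to -0.18 with the library index in the model. In the fit with the library index, Tnf (2.53) and Il1b (0.31) did not pass (edgeR adjusted p from 0.207 to 1).

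All 5 chemokine genes that rose, the pseudogene Cxcl11 included, belong to the CXC class, and no CC chemokine passed. With 3.73% of all tested genes called, no call among so few CC genes says little about that class. Of 10 tested chemokines 5 were higher and 0 lower (median 2.39), and 7 had an unadjusted p under 0.05 by edgeR. CC genes were among these 7. The CC genes tested were Ccl2, Ccl3, Ccl4, Ccl6 and Ccl9. The filter on low counts removed Ccl5, Ccl7, Ccl17, Ccl20 and Ccl22, and of the CXC genes Cxcl5, Cxcl9 and Cxcl16. Cxcl2, a ligand of CXCR2 that attracts neutrophils, had 537, 108, 241 and 382 CPM without and 4572, 4821, 5200.4, 5171 and 5147 CPM with stimulation, a log2 fold change of 3.96 (SE 0.38, adjusted p = 8.85e-08). Cxcl3, another CXCR2 ligand, had 12.4, 4.80, 6.33 and 8.51 CPM and then 167, 256, 259, 208 and 195 CPM, a log2 fold change of 4.66 (SE 0.23, adjusted p = 1.52e-12). Cxcl1 had 0, 0, 0 and 0.936 CPM and then 3.73, 10.5, 7.74, 11.2 and 15.1 CPM, and its call was lost without library 67, 68, 69, 78 or 79 (edgeR adjusted p up to 0.107). The 3 genes lie within 119.8 kb of chromosome 5, from 90786101 to 90905938, and the κB matches printed above sit in all 3 promoters. Cxcl10, a ligand of CXCR3, had 0.927, 3.20, 1.13 and 0.425 CPM and then 117, 171, 139, 119 and 119.6 CPM, a log2 fold change of 7.17 (SE 0.49). Its neighbour Cxcl11 is listed as a transcribed pseudogene by RefSeq, and C57BL/6 mice are known to make no functional chemokine from it. It had 0 counts in all 4 unstimulated libraries and 2.49, 12.7, 1.41, 0.897 and 3.87 CPM in the stimulated ones. Against a floor of 3 counts over the 4 libraries it was at least 34.1-fold higher, and at least 17.3-fold without library 76, which held most of its counts. The CC chemokine genes Ccl3 and Ccl4 had log2 fold changes of 0.81 (adjusted p = 0.335) and -0.33 (adjusted p = 0.825). When the index was added as a covariate, Cxcl11, Cxcl2 (2.12) and Cxcl1 did not pass (edgeR adjusted p from 0.0805 to 1).

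In the lymphotoxin family itself 2 of 5 tested genes were higher. Ltb, which encodes lymphotoxin β, had 343, 348, 347 and 367 CPM without and 469, 466, 581, 582 and 539.6 CPM with stimulation, a modest step between groups that did not overlap (log2 fold change 0.58, SE 0.11, adjusted p = 0.000758). Lta, which encodes lymphotoxin α, had 0 counts in every unstimulated library and 3.11, 9.65, 4.22, 4.49 and 0 CPM in the stimulated ones, at least 34.2-fold higher against a floor of 3 counts over the group, at least 21.3-fold without library 76 and at least 17.4-fold without library 70. The groups touched at 0, since stimulated library 79 also had none, and the call was lost without library 67, 69, 70 or 76 (edgeR adjusted p up to 0.0870). Tnf, Lta and Ltb are neighbours within 11.1 kb of chromosome 17, from 35194507 to 35205578. Tnfrsf14, which encodes HVEM, the other receptor of LIGHT, had 4.33, 3.999, 1.81 and 5.19 CPM without and 6.22, 8.66, 2.11, 11.2 and 2.71 CPM with stimulation (log2 fold change 0.70, SE 0.69, adjusted p = 0.798). With the index as a covariate, Ltb (0.45) and Lta did not pass (edgeR adjusted p of 1).

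**Figure D4:**
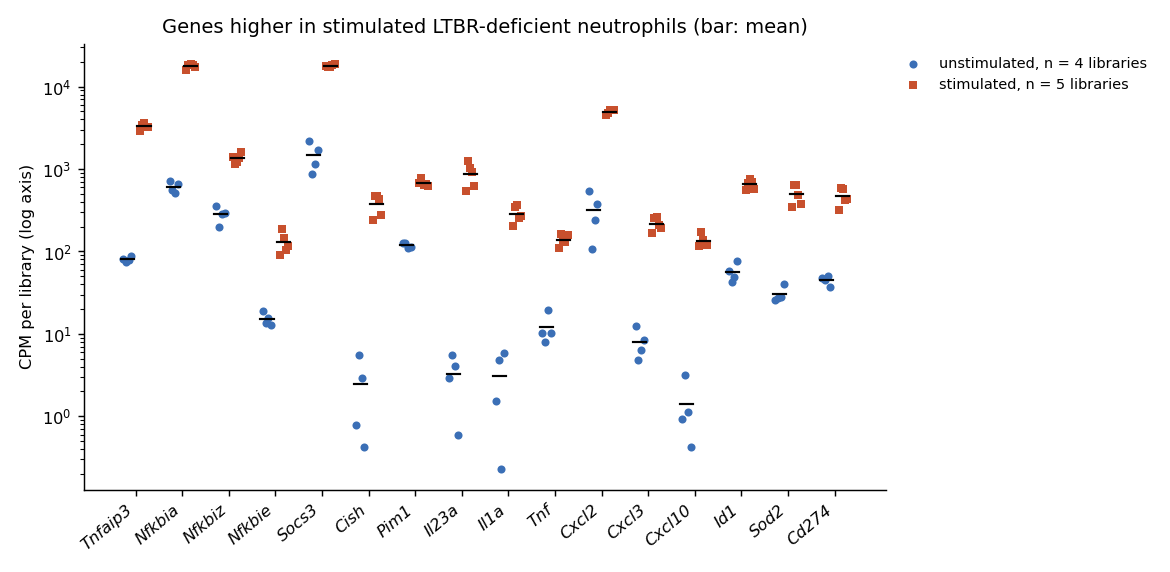
CPM per LTβRΔN library on a log axis for 16 genes higher with stimulation, with unstimulated libraries as blue circles, stimulated libraries as red squares and the mean of each group as a bar. For each gene all 5 stimulated libraries lie above all 4 unstimulated ones, with the widest gaps for Cish, Il23a, Il1a and Cxcl10.

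Receptors for chemoattractants and microbial products rose in several families. Among chemoattractant receptors 6 of 16 were higher and 0 lower (median 0.21). Gpr84, a receptor of medium-chain fatty acids, had 2.32, 3.999, 2.71 and 6.13 CPM without and 54.2, 203, 191, 113 and 89.8 CPM with stimulation, a log2 fold change of 5.04 (SE 0.50). Ffar2, a receptor of short-chain fatty acids that is not in this list and was named for its small p, had 4.02, 4.80, 1.81 and 3.15 CPM and then 193, 318, 376, 300.1 and 238 CPM, a log2 fold change of 6.45 (SE 0.37, adjusted p = 1.64e-11). Niacr1 (Hcar2), the receptor of niacin and β-hydroxybutyrate, went from between 1936 and 5359 to between 7842 and 11345 CPM. Each of these metabolite receptors had groups that did not overlap. Smaller rises were found for Ccrl2 (1.99 on the log2 scale), Ptafr, the receptor of platelet-activating factor (1.32), Ccr1 (1.06) and the formyl peptide receptor Fpr2 (0.98). With the library index in the model, Ccrl2 (1.22), Ccr1 (0.73), Ptafr (1.24), Niacr1 (0.54) and Fpr2 (0.81) did not pass (edgeR adjusted p from 0.0574 to 1).

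Of 19 Toll-like receptor and adaptor genes 4 were higher and 0 lower (median 0.13). Cd14, the co-receptor of TLR4 for lipopolysaccharide, had 1413, 679.8, 1081 and 1526 CPM without and 6486, 6141, 6919.5, 7136 and 7011 CPM with stimulation, a log2 fold change of 2.52 (SE 0.18, adjusted p = 7.07e-10). Tlr2 rose by 1.62 on the log2 scale, Tlr4 by 0.94 and the adaptor Myd88 by 0.74, the groups of Tlr4 overlapping. Of 12 C-type lectin receptor genes 5 were higher and 0 lower (median 0.37). They were the fungal receptors Clec4e (Mincle, 0.997), Clec4n (Dectin-2, 1.202) and Clec7a (Dectin-1, 0.41), with Clec5a (1.01) and the kinase Syk (0.63) that several of them use. Fcgr3 was the 1 of 4 tested Fc receptor genes that passed (0.62). Among 20 adhesion genes Icam1 alone passed, from 12.4, 31.2, 25.8 and 27.5 CPM to 108, 304, 356, 216 and 195 CPM (log2 fold change 3.33, SE 0.32, adjusted p = 1.11e-07). Under the index covariate, Fcgr3 (0.62), Tlr4 (0.66), Clec4e (0.63), Clec4n (1.66), Clec5a (1.21), Syk (0.69) and Clec7a (0.27) did not pass (edgeR adjusted p from 0.0638 to 1).

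Of 32 early response factors 11 were higher and 1 lower (median 0.46). The lower one, Atf3 (-0.71 on the log2 scale), was lost without any library but 68 and 75 (edgeR adjusted p up to 0.144). Ier3, an early stress and survival gene, had 321, 149.6, 205 and 294 CPM without and 4367, 3008, 4009.9, 4888 and 4959 CPM with stimulation, a log2 fold change of 4.12 (SE 0.22, adjusted p = 4.95e-12). Egr1 rose by 2.78 on the log2 scale, Maff by 3.36, Egr2 by 2.67, Ier2 by 1.03 and Fosl2 by 0.87. Fos, also an early response factor, had 8354, 2032, 5050.0 and 5987 CPM without and 3288, 1217, 1858, 2354 and 2292 CPM with stimulation and missed the threshold (log2 fold change -1.28, SE 0.37, adjusted p = 0.0577). The inhibitor of DNA binding Id1, one of 2 higher genes among 20 ID and myeloid factors, had 58.4, 43.2, 48.4 and 77.7 CPM and then 560.2, 669, 765, 693 and 569.8 CPM, a log2 fold change of 3.48 (SE 0.18). Irf1, which drives interferon target genes, had 484, 601, 593 and 610.3 CPM and then 1362, 1667, 1898, 1682 and 1674 CPM, a log2 fold change of 1.54 (SE 0.11). None of 32 tested interferon-stimulated genes passed in either direction by edgeR (median -0.095, smallest adjusted p = 0.0639 for Isg15, which had between 82.4 and 104 CPM without and between 42.9 and 68.5 CPM with stimulation). An unadjusted p under 0.05 was found for 3 of the 32. Over all tested genes 3.73% were called, and 0 of 32 is near that share. In the fit with the library index, Fosl2 (0.99), Ier2 (0.93) and Atf3 (-1.34) did not pass (edgeR adjusted p from 0.0667 to 0.304).

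The phosphatases that switch off MAP kinases split. Dusp2, an ERK phosphatase of the nucleus, had 145, 89.6, 155 and 146 CPM without and 651, 1138, 1019, 861 and 725.8 CPM with stimulation and rose by 2.70 on the log2 scale (SE 0.18). Dusp6, the cytoplasmic ERK phosphatase, had 604, 758, 791 and 764 CPM and then 199, 145, 145, 157 and 214 CPM, a log2 fold change of -2.08 (SE 0.14, adjusted p = 2.77e-10), the smallest p among lower genes. Dusp5, another nuclear ERK phosphatase, had 112, 107, 119 and 107 CPM and then 23.03, 14.6, 31.7, 35.9 and 20.1 CPM, a log2 fold change of -2.18 (SE 0.32). All 3 had groups that did not overlap, and the list of 11 had a median of 0.61, with 1 member higher and 2 lower. RGS proteins, which shorten signalling by G protein-coupled receptors, had 0 of 7 higher and 2 lower (median -0.36). Rgs2 had 918, 769, 1085 and 905 CPM without and 491, 175, 336, 471 and 481 CPM with stimulation, a log2 fold change of -1.24 (SE 0.21), and Rgs1 fell from between 27.2 and 71.6 to between 0.742 and 18.1 CPM, a call lost without library 67 (edgeR adjusted p = 0.0699). When the index was added as a covariate, Dusp5 (-2.25), Rgs2 (-1.34) and Rgs1 (-2.67) did not pass (edgeR adjusted p from 0.147 to 0.892).

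Other lower genes with the smallest p-values are given next, whatever their role. Osgin1, an oxidative stress response gene, had 780.1, 964, 712 and 731 CPM without and 264, 194, 319, 198 and 287 CPM with stimulation, a log2 fold change of -1.66 (SE 0.16, adjusted p = 1.06e-07). Plk3, a stress kinase, had 1240.4, 1339.6, 1259 and 1251 CPM and then 489, 526, 534, 413 and 478 CPM, a log2 fold change of -1.38 (SE 0.14, adjusted p = 1.72e-07). Both had groups that did not overlap, and Plk3 was tight within each group. Txnip and Arrdc3, arrestin-like proteins of which the first restrains glucose uptake and thioredoxin, went from between 1449 and 2976 to between 883 and 1203 CPM (-1.10 on the log2 scale) and from between 421 and 506 to between 138 and 252 CPM (-1.18). Sik1, a kinase induced by cAMP, went from between 522 and 872 to between 95.7 and 373 CPM (-1.61), while Pde4b, which breaks down cAMP, had 909, 738, 662 and 686 CPM without and 4076, 5377, 4539, 4391 and 4112 CPM with stimulation and rose by 2.59. Thbs1, which encodes the matrix protein thrombospondin 1, went from between 165 and 211 to between 52.9 and 101 CPM (-1.45), Stk17b, a death-associated kinase, from between 2616 and 2915 to between 1388 and 1862 CPM (-0.74), and the small GTPase gene Arl4c from between 146 and 185 to between 75.5 and 109 CPM (-0.94). The factor Nfe2 fell by 0.69 on the log2 scale. Also lower were Pnrc2 (-0.85), Sephs2, an enzyme of selenium metabolism (-0.67), and the little described F630028O10Rik (-1.16), AW011738 (-1.91), 1700017B05Rik (-1.95) and B230208H11Rik (-1.51). With the index as a covariate, F630028O10Rik (-0.85), Nfe2 (-0.58), Arrdc3 (-0.90), Txnip (-0.33), Arl4c (-1.01), Pnrc2 (-0.61), Sephs2 (-0.76) and B230208H11Rik (-1.45) did not pass (edgeR adjusted p from 0.274 to 1).

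**Figure D5:**
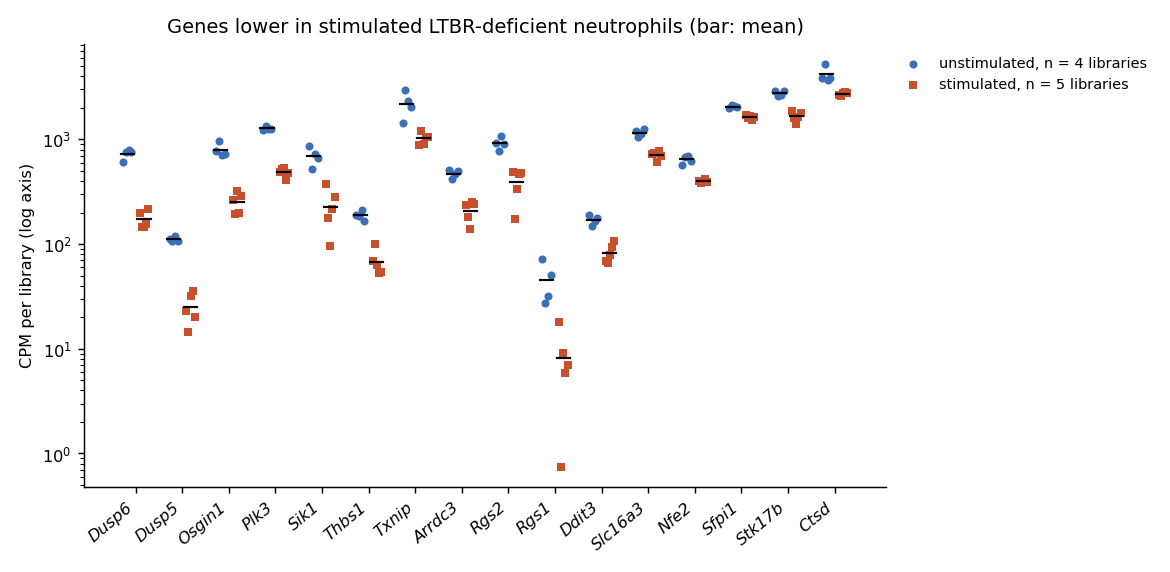
CPM per LTβRΔN library on a log axis for 16 genes lower with stimulation, with unstimulated libraries as blue circles, stimulated libraries as red squares and the mean of each group as a bar. For each gene all 5 stimulated libraries lie below all 4 unstimulated ones, with steps from less than 2-fold for Sfpi1 to several-fold for Dusp5 and Rgs1.

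Several survival and stress genes rose. In the BCL2 and death control list 5 of 22 were higher and 0 lower (median 0.26), and 4 of the 5 were copies of Bcl2a1, which encodes the survival protein A1. Bcl2a1b had 9.89, 7.20, 11.3 and 17.5 CPM without and 124, 201, 248, 227 and 153 CPM with stimulation, a log2 fold change of 3.95 (SE 0.26), and Bcl2a1a and Bcl2a1d rose by 4.65 and 4.72. Bcl2a1c had 3 counts over the unstimulated libraries. The copies are near-identical and their counts may be split between them, so the value of each is uncertain. Cflar, the caspase-8 inhibitor cFLIP, rose by 1.26 on the log2 scale. Of 24 stress and p53 response genes 8 were higher and 3 lower (median 0.20). Gadd45b had 241, 115, 173 and 190.1 CPM and then 1845, 1612, 2080.3, 2017 and 2187 CPM, a log2 fold change of 3.42 (SE 0.19). Cdkn1a (p21) rose by 1.82, Ppp1r15a (GADD34) by 1.75, Trib1 by 1.08, and of the unfolded protein response Xbp1 by 1.25 and Hspa5 (BiP) by 0.95. Ddit3 (CHOP), of the same response, went the other way, from between 149 and 188 to between 66.7 and 107 CPM (-1.04). Among 13 mRNA decay regulators 3 were higher (median 0.24), including Zfp36 (tristetraprolin, 2.15) and Zc3h12a (regnase-1, 1.78). Nlrp3, the inflammasome sensor, rose by 1.27. With the library index in the model, Ddit3 (-1.38), Bcl2a1d (3.54), Cflar (1.17), Bcl2a1c, Nlrp3 (1.024), Zc3h12a (1.25), Zfp36 (0.64), Cdkn1a (1.32), Xbp1 (1.12), Ppp1r15a (0.89), Hspa5 (0.87) and Trib1 (0.71) did not pass (edgeR adjusted p from 0.0595 to 1).

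Antioxidant genes had 6 of 27 members higher and 1, Osgin1, lower (median -0.037). Sod2, the mitochondrial superoxide dismutase, had 26.1, 27.2, 28.05 and 39.99 CPM without and 345, 636, 636, 481 and 378 CPM with stimulation, a log2 fold change of 4.003 (SE 0.21, adjusted p = 3.25e-12). Txnrd1, thioredoxin reductase, rose by 3.27 on the log2 scale, Slc7a11, the cystine transporter, by 1.99, the ferritin chain Fth1 by 1.17, Prdx6 by 0.93 and Nfe2l2 (NRF2) by 0.67. None of the 8 subunits of the NADPH oxidase passed (edgeR smallest adjusted p = 0.268, 1 with an unadjusted p under 0.05). With 3.73% of all tested genes called, 0 of 8 says little about the oxidase. In glucose metabolism 1 of 27 was higher and 1 lower (median -0.15), 3.70% each beside 2.98% higher and 0.749% lower over all tested genes. The glucose carrier Slc2a1 (GLUT1) went from 198, 198, 183 and 189 CPM to 320.0, 360.1, 412, 378 and 326 CPM (0.90 on the log2 scale), and the lactate carrier Slc16a3 (MCT4) from 1197, 1048, 1124 and 1265 CPM to 728.3, 739.7, 602, 767 and 701 CPM (-0.71). Neither pair of groups overlapped. Egln3, an oxygen-dependent hydroxylase that acts on HIF, had 6.34, 6.40, 6.33 and 13.8 CPM and then 193, 269, 216, 212 and 229.6 CPM (4.66). Under the index covariate, Slc16a3 (-0.80), Slc7a11 (0.99), Fth1 (0.90), Nfe2l2 (0.51) and Slc2a1 (0.87) did not pass (edgeR adjusted p from 0.136 to 0.844).

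Housekeeping lists showed few calls, beside 3.73% called over all tested genes, so 0 in the shorter lists says little. By edgeR 0 of 30 genes of the TCA cycle and fatty acid oxidation, 0 of 22 of ribosome biogenesis, 0 of 77 cytoplasmic ribosomal proteins and 0 of 45 proteasome subunits passed, with unadjusted p-values under 0.05 for 1, 2, 3 and 2 of them and medians of -0.19, -0.15, 0.13 and -0.18. Of 77 nuclear respiratory chain subunits 1 was lower and 0 higher (median -0.11), and of 66 mitochondrial ribosomal proteins 1 was higher (median 0.0043). Cytoplasmic ribosomal proteins held between 0.542% and 0.769% of counts without and between 0.516% and 0.685% with stimulation. Granule and antimicrobial proteins had 0 of 23 higher and 1 lower (median -0.076), the lysosomal protease Ctsd, at 3882, 5234, 3721 and 3856 CPM without and 2635, 2622, 2758, 2817 and 2747 CPM with stimulation (-0.62 on the log2 scale, adjusted p = 0.00309). In the eicosanoid list Ptgs2 (COX-2) was the 1 of 12 that passed, at 1.24, a direction that turned to -0.094 with the library index in the model. In the fit with the library index, Ctsd (-0.33) and Ptgs2 (-0.094) did not pass (edgeR adjusted p of 1).

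In the list of antigen presentation and co-stimulation 3 of 15 were higher and 0 lower (median 0.28). Cd274, which encodes the T cell inhibitor PD-L1, had 47.9, 44.8, 50.4 and 37.01 CPM without and 323, 596, 567, 424 and 437 CPM with stimulation, a log2 fold change of 3.39 (SE 0.22, adjusted p = 1.22e-10). Cd74, the invariant chain of MHC class II, had 10.05, 21.6, 16.3 and 10.2 CPM and then 158, 288, 351, 281 and 188 CPM, a log2 fold change of 4.24 (SE 0.28). H2-Aa, a chain of MHC class II, went from 0.309, 0.8, 0.452 and 0 CPM to 3.11, 8.29, 14.1, 0.897 and 28.3 CPM, a call lost without library 67, 69, 70 or 79 (edgeR adjusted p up to 0.0958). Markers of dendritic cells and B cells, which also express these genes, were at 0 in all 5 stimulated libraries, 4 of 4 and 5 of 5 markers. In unstimulated libraries they summed to at most 2.40 and 1.60 CPM. Whether other cells contributed to these rises was not tested. The summed monocyte and macrophage markers were between 432 and 655 CPM in unstimulated and between 417 and 488 CPM in stimulated libraries. When the index was added as a covariate, H2-Aa (2.97) did not pass (edgeR adjusted p of 1).

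Further genes among the 20 smallest p-values were Marcksl1, an actin-linked substrate of protein kinase C, and Ccng2 (cyclin G2). Marcksl1 had 308, 349.5, 356 and 339 CPM without and 1793, 3312, 3369, 2824 and 2301 CPM with stimulation, a log2 fold change of 3.01 (SE 0.17). Ccng2 had 111, 130.4, 140.0 and 135 CPM and then 456, 686, 488, 536 and 549.3 CPM, a log2 fold change of 2.08 (SE 0.14). Both had groups that did not overlap.

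The largest folds came from genes near or at 0 before stimulation. Of the 275 higher genes 5 had 0 counts in all 4 unstimulated libraries, and a further 5 had 1 to 3 counts there. Serpinb2, the plasminogen activator inhibitor PAI-2, had 1 count in library 68 and none in the other 3, and 10.6, 36.2, 19.01, 12.6 and 18.97 CPM with stimulation. Sdc4 (syndecan 4) and Adora2b (the adenosine A2B receptor) had 0 counts without stimulation, and 0, 6.93, 5.63, 14.4 and 7.74 and 0.622, 14.6, 0, 16.1 and 1.94 CPM with it, at least 55.2-fold and 53.1-fold higher against a floor of 3 counts over the 4 libraries. Without library 70 these bounds were 28.1 and 26.96, and without library 76 that of Adora2b was 37.3. Each of these 2 genes also had a stimulated library at 0, so their groups touched, and the call of Adora2b was lost without library 67, 68, 69, 70, 76 or 78 (edgeR adjusted p up to 0.115). In the other direction C130060C02Rik had 1.24, 5.60, 7.92 and 0.51 CPM and Pgm3, an enzyme of amino sugar synthesis, 2.78, 1.60, 1.58 and 0.425 CPM without stimulation, and both had 0 counts in all 5 stimulated libraries, at least 12.4-fold and 7.11-fold lower against a floor of 3 counts over the 5, bounds that went down to 5.72 without library 69 and 3.50 without library 76. These calls were lost without library 68, 69, 76, 78 or 79 for C130060C02Rik (up to 0.0999) and without any library but 70 for Pgm3 (up to 0.0986). Slc16a14 went from between 1.96 and 17.9 to between 0 and 1.87 CPM, a call lost without any library but 70 and 75 (up to 0.262), and Ahcyl2 went from between 14.99 and 18.8 to between 1.24 and 6.97 CPM. With the index as a covariate, Sdc4, Adora2b, Serpinb2, C130060C02Rik, Pgm3, Slc16a14 (-3.37) and Ahcyl2 (-2.004) did not pass (edgeR adjusted p from 0.368 to 1).

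Whether the response differed from that of control neutrophils was tested by the interaction of genotype and treatment over the same 9213 genes, and 0 genes (0%) passed by edgeR (smallest adjusted p = 0.9999). An unadjusted p under 0.05 was found by edgeR for 342 of the 9213 genes, fewer than the 1 in 20 that chance alone gives. DESeq2 and limma voom also called 0. Control neutrophils had log2 fold changes of 5.98 for Tnfaip3, 5.001 for Nfkbia, 8.60 for Cish, 9.61 for Il23a and 4.33 for Cxcl2, beside 5.35, 4.85, 8.05, 8.50 and 3.96 in LTβRΔN neutrophils. For Dusp6, Osgin1 and Plk3 they were -2.15, -1.63 and -1.26, beside -2.08, -1.66 and -1.38. Among these the smallest unadjusted p by edgeR was that of Tnfaip3 (0.00652), with a log2 difference of -0.63 (SE 0.21), LTβRΔN minus control. Some other genes described above had smaller unadjusted p-values for the interaction by edgeR. C130060C02Rik and Pgm3, lower in LTβRΔN neutrophils and of few counts, had log2 fold changes of 1.95 and 0.57 in control neutrophils (unadjusted p = 0.00118 and 0.00372). Dusp2 rose by 3.48 in control and 2.70 in LTβRΔN neutrophils (unadjusted p = 0.00510). None of these passed after adjustment. Intervals were wide for genes with few counts in a group. Il23a, with 51 counts over the unstimulated and 16175 over the stimulated LTβRΔN libraries, had a difference of -1.11 (SE 0.68).

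Within the stimulated group the levels of the higher genes differed between libraries. Whether the cells responded unequally was not tested, and the shares below were not taken over all tested genes. Library 75 had the lowest level of the 5 for 125 of the 275 higher genes (45.5%) and the highest for 17, while library 76 had the highest for 101 and library 77 for 74. Il23a shows this, at 540.3 CPM in library 75 and 1258 CPM in library 76. Library 75 had a total of 1697583 counts and library 77 a smaller one of 1506153. Among unstimulated libraries, library 68 had the lowest level for 122 of the 275 (44.4%), and also the smallest total of all. It was lowest for Cxcl2, Zfp36 and Ptgs2, with Zfp36 at 5459.8, 1291, 3286 and 4068 CPM over the 4 libraries. The part of depth in the levels of libraries 68 and 75 was not tested.

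Of 125 named genes that passed, 108 did so with any 1 of the 9 libraries left out and 17 did not. Beside those given above with their libraries (Adora2b, C130060C02Rik, Pgm3, Slc16a14, Rgs1, Lta, Cxcl1, H2-Aa and Atf3), 8 further genes were lost. Zfp36l1, an mRNA decay regulator that rose by 0.57 on the log2 scale, was lost without library 68, 69, 70 or 75 (edgeR adjusted p up to 0.0917). Nfkb1, the precursor of p50 (0.93), was lost without 67, 69, 70, 76 or 79 (up to 0.136), and the death domain kinase Ripk1 (0.75) without any library but 70 and 79 (up to 0.152). Csf2rb, the shared receptor chain of GM-CSF whose counts may be split with its close copy Csf2rb2 (0.55), and Sfpi1, which encodes the myeloid factor PU.1 (-0.33), were lost without 67, 69, 70, 76, 78 or 79 (up to 0.141 and 0.0988). Casp4, an inflammatory caspase (0.70), was lost without any library but 75 (up to 0.125), and it turned to -0.19 with the library index in the model. Sdhd, a subunit of respiratory complex II (-0.57), was lost without 67, 68, 70, 76, 78 or 79 (up to 0.211), and Mrpl16, of the mitochondrial ribosome (4.80), without 68, 69, 70, 76 or 77 (up to 0.135). With the library index in the model, 51 of the 125 kept their call and 74 did not, each named beside its result. That fit rests on the 3 unstimulated control libraries, 71 and 72 with S520 against 73 with S521. The lost calls may thus reflect a less exact estimate as well as the index. With the library index in the model, Nfkb1 (0.82), Ripk1 (0.86), Csf2rb (0.51), Sfpi1 (-0.27), Casp4 (-0.19), Zfp36l1 (0.013), Sdhd (-0.50) and Mrpl16 (6.59) did not pass (edgeR adjusted p of 1).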

How the data were processed

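RNA from neutrophils of 16 libraries was sequenced, and the authors deposited 1 table of read counts for 23337 gene symbols, not normalised. The submitters' processing notes name TopHat 1.4.1, Bowtie 1.0.0, HTSeq 0.7.1 and the build mm10. Whether counting used strand is not given in the sources used here, so reads of overlapping or antisense genes cannot be told apart. Columns were matched to samples by the labels. Genes were filtered with filterByExpr (minimum count 10, minimum total 15), scaled by TMM and fitted over all 16 libraries by group with edgeR 4.0.16 (quasi-likelihood test, R 4.3.3), and p-values were adjusted over 9213 genes by Benjamini-Hochberg. DESeq2 1.42.0 and limma 3.58.1 served as alternatives. Totals per library set the counting error, which was largest in the libraries of least depth. The scripts were tested on simulated data. Named genes were Ltbr, Cish, Socs3, Nfkbia, the 20 smallest p-values and 6 largest folds in each direction, and up to 6 called members per list and direction. Genes named outside this rule, after their values were seen, were Ccl3, Ccl4, Fos, Il1b, Isg15, Osm and Tnfrsf14. The libraries compared, the lists and the rule were chosen with earlier results of these data known. Replicates of a group differed by more than sampling noise in each pair (chi-square per degree of freedom 7.12 to 25.2). Bounds for genes with 0 counts in a group took the lower of pooled counts and the mean of libraries, a choice made after the values were seen.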

Additional observations from a re-analysis of the deposited data

Results flagged for a closer look

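Of 252 groups of values of the genes described, 17 held a library far from the others by Dixon's test, from the gap to the nearest library over the whole range of the group, where chance flags about 1 in 20, or 12.6. In library 67 these were Dusp6 at 604 CPM (others 758 to 791), Irf1 at 484 CPM (593 to 610), Fpr2 at 76.3 CPM (60.9 to 62.0), Nfe2l2 at 463 CPM (405 to 408) and Mrpl16 at 0.618 CPM (others 0). In library 68 they were Dusp2 at 89.6 CPM (145 to 155), Ctsd at 5.23e+03 CPM (3.72e+03 to 3.88e+03), Inhba at 0 CPM (1.58 to 2.13) and Serpinb2 at 0.8 CPM (others 0). Ltbr stood apart in library 69 at 3.62 CPM (8.80 to 10.4). In library 70 the genes were Sod2 at 40 CPM (26.1 to 28.0), Egln3 at 13.8 CPM (6.33 to 6.40) and Cxcl1 at 0.936 CPM (others 0). Among stimulated libraries, Sdc4 was at 0 CPM in library 75 (5.63 to 14.4), AW011738 at 16.2 CPM (35.9 to 47.3) and Traf6 at 90.8 CPM (41.1 to 48.4) in library 77, and Nfe2l2 at 609 CPM in library 79 (670 to 695). The unstimulated libraries held 13 of the 17 and the stimulated ones 4.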

How the results depend on the processing

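The count of 344 genes stayed within 1.5 times with DESeq2 size factors (345), upper-quartile factors (347), library totals only (509), at least 1 count (330), at least 10 counts in each library (361), the 9 LTβRΔN libraries alone (363), DESeq2 (480), voom (410) and an adjusted p under 0.01 (237). Lower genes numbered 293 with totals only, 119 with DESeq2, 111 with voom and 34 at an adjusted p under 0.01. Asking for at least 2-fold left 209 genes, 180 higher and 29 lower. The library index as a covariate left 79 genes, 69 higher and 10 lower, and gave 1 interaction gene. Leaving out 1 library gave 266 to 334 changed, 220 to 267 higher and 46 to 72 lower genes, and 0 interaction genes. The number in the column names as a replicate block gave 342 genes, 259 higher and 83 lower. Each number of an unstimulated LTβRΔN column recurs in a stimulated one. Deviations of these same-numbered libraries correlated at 0.0654, 0.0694, 0.0253 and 0.0214, under 0.1, and the main fit did not pair them. Of the unstimulated libraries 3 of 4 correlated best with their own number. So weak a correlation cannot exclude that same-numbered libraries came from 1 animal. Log2 fold changes that turned were Ltbr (0.0052 with DESeq2 size factors, 0.049 with DESeq2, 0.075 in the 9 libraries alone, -0.40 to 0.27 with 1 library left out), Ccl4 (-0.57 to 0.076 with 1 left out) and, with the index, Casp4 (-0.19), Ptgs2 (-0.094), Osm (-0.18) and Ccl3 (-0.72). For these changes the cause was not tested. Depth limits the genes with few counts, whose folds are bounds or uncertain.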

Other observations

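Outside the lists and the naming rule, chosen after their values were seen, several further genes passed the same edgeR test. Saa3, an acute phase protein, went from between 0 and 1.36 CPM to between 13.7 and 32.1 CPM (log2 fold change 5.45, SE 0.69, adjusted p = 6.33e-06). Tifa, an adaptor that links TRAF proteins to NF-κB, rose by 5.13 (SE 0.39) and Adora3, the adenosine A3 receptor, by 4.81 (SE 0.38). F3, which encodes tissue factor, the starter of coagulation, rose by 4.43 (SE 0.46) and Plaur, the urokinase receptor, by 1.42 (SE 0.14). Olr1, a receptor of oxidised lipoprotein, rose by 4.43 (SE 0.37). Irg1, which makes itaconate, was at 575.8 to 832 CPM without and at 2850 to 4094 CPM with stimulation (2.27, SE 0.21), and Nampt, of NAD synthesis, rose by 0.96 (SE 0.19). For each of these, every stimulated library lay above every unstimulated one. With the library index as a covariate Saa3 (adjusted p = 0.558), F3 (0.588), Plaur (0.0621), Irg1 (0.0804) and Nampt (0.36 on the log2 scale) did not pass in the edgeR fit.

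Among lower genes outside the rule, Slc40a1, the iron exporter ferroportin, went from between 893.7 and 1037 CPM to between 418.9 and 737 CPM (log2 fold change -0.56, SE 0.13, adjusted p = 0.00911). Slc3a2, the heavy chain that pairs with Slc7a11 in cystine transport, fell by 0.98 (SE 0.22) on the log2 scale, whereas Slc7a11 rose, as given above. Gpr35, a G protein-coupled receptor, fell by 1.27 (SE 0.25). The groups of these lower genes did not overlap. None of the 3 passed with the library index as a covariate (log2 fold changes -0.36 for Slc40a1, -1.05 for Slc3a2 and -0.95 for Gpr35).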
